A study of Saccharomyces cerevisiae S288C with 71 samples.

Results

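The step from 12 h to 16 h in wild-type Saccharomyces cerevisiae S288C was read from 4 of the 71 RNA-seq libraries of the series, 2 collected at 12 h and 2 at 16 h. The libraries were chosen by their strain and time labels alone, and 5766 of the 5803 genes in the table passed the filter on low values and were tested. The series followed 12 strains across the wild-type diauxic shift at 3 times, 0 h (log phase), 12 h and 16 h. The wild type carried no deletion, and all strains were grown by shaking at 30 C in yeast nitrogen base with ammonium and 2% glucose. The labels do not give the mating type, the residual glucose or the ethanol at any time. The comparison strains are the coq2 mutant (ubiquinone synthesis), the cox4 mutant (cytochrome c oxidase) and the ras2 mutant (a GTPase that activates adenylate cyclase), each at the same times and in the same medium. Libraries of 1 group are technical replicates by their labels, so every p-value measures the spread between such libraries and not that between cultures.

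Yeast growing on glucose ferments most of it to ethanol and represses the genes for respiration and for other carbon sources. At the diauxic shift the glucose runs out and cells switch to oxidising ethanol and acetate in mitochondria. Growth on those compounds needs the glyoxylate cycle, which builds C4 acids from acetyl-CoA, and gluconeogenesis, which turns the C4 acids into sugar phosphates. The Snf1 kinase and the transcription factors Cat8, Sip4 and Adr1 are known to switch on these genes once glucose is gone, and the heme activator complex with its Hap4 subunit is known for the respiratory chain.

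Between 12 and 16 h the genes of the glyoxylate cycle and gluconeogenesis had the highest median change of the gene lists with at least 4 tested members. The values are TPM (a gene's share of the library's transcripts after correction for their length), and changes are differences of log2(TPM + 1), a scale that makes the changes of low genes look smaller. At an adjusted p under 0.05 in limma and at least a 2-fold change, 22 genes (0.382% of those tested) passed, of which 13 rose (0.225%) and 9 fell (0.156%). With a lower limit of 1.5-fold, 166 genes passed (2.88%), 71 higher at 16 h (1.23%) and 95 lower (1.65%), but each of the 4 fits without 1 library gave more higher than lower genes at this limit. The step was small next to that from 0 to 12 h, in which 2616 genes (45.4%) passed the 2-fold threshold. The median change over all genes tested was −0.03. The 2 libraries of 12 h correlated with each other across genes at r = 0.996, as did those of 16 h, with 20 genes over 2-fold apart in each pair, whereas a 12 h and a 16 h library correlated at 0.987 to 0.990 with 34 to 57 genes over 2-fold apart. In bulk RNA a change in every cell and a change in the share of cells that express a gene cannot be told apart.

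**Figure D1:**
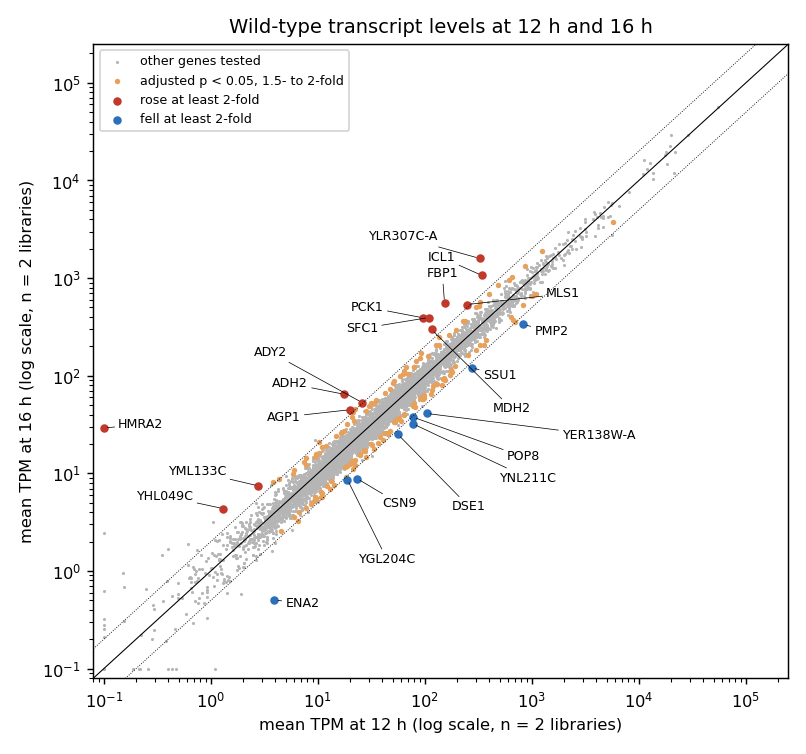
Mean TPM of each gene tested at 12 h (x) and 16 h (y) in the wild type, both on log scales, n = 2 libraries each; the solid line marks equal values and the dotted lines a 2-fold ratio of TPM. The 13 red genes rose and the 9 blue genes fell at least 2-fold on the log2(TPM + 1) scale; orange genes passed at 1.5-fold only, and the gene at the lower limit of the x axis is HMRA2, at the table's floor of 0.1 TPM at 12 h.

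The promoters of the rising genes are shown first because 7 of the 13 hold the carbon source response element, the site bound by Cat8 and Sip4. It was searched as CCNTT, 3 further bases of any kind and CCG, on both strands in the 600 bases before each start codon, a window that can run into a neighbouring gene. Of 5745 such windows 184 held it (3.2%), against 53.8% of those of the 13 genes that rose, 13 of the 70 with a window among the genes higher at 1.5-fold (18.6%), 0 of the 9 that fell and 1 of the 95 lower at 1.5-fold (1.05%). This motif was added after the rising genes had been seen, and it was described from some of these very genes, so the shares are a description. A match does not show binding. One match per gene follows, 5′ to 3′ on the strand given with 9 bases on each side, the motif in capitals, read from the R64 (sacCer3) genome.
PCK1, chrXI:630662-630690, plus strand: accgagcttCCTTTCATCCGgcgcggctg
ICL1, chrV:287293-287321, minus strand: cccaggtttCCATTCATCCGagcgatcac
SFC1, chrX:609184-609212, minus strand: cgccaacgtCCATTTCTCCGggcgggcgc
MLS1, chrXIV:405818-405846, minus strand: tggggatttCCATTGAGCCGatagcaatg
MDH2, chrXV:83278-83306, minus strand: ttactttgcCCATTCGGCCGtagccgttc
ADY2, chrIII:133616-133644, minus strand: gtccactgcCCGTTGATCCGgagctccgt
YLR307C-A, chrXII:747640-747668, minus strand: tagaaagttCCATTAATCCGacattaaaa

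The middles of these matches lie 476 bases before the start codon in PCK1, 393 in ICL1, 575 in SFC1, 526 in MLS1, 372 in MDH2, 506 in ADY2 and 543 in YLR307C-A. The letters were not found in this window of FBP1, ADH2 or AGP1. Among genes higher at 1.5-fold only, matches stood before ACS1, REG2, DLD1, SIP2, CCP1 and RKI1. Of 15 other motifs searched, some are given here, and no rule set beforehand chose them. The MCB motif ACGCGT stood in 12.9% of the genes higher at 1.5-fold, 5.26% of those lower and 6.42% of all windows. For the SCB motif CGCGAAA these shares were 10%, 2.11% and 6.65%. At 2-fold MCB stood in 0% of the rises and 22.2% of the falls, and SCB in 0% of both. The URS1 motif GGCGGC stood in 27.1% of the genes higher at 1.5-fold, 8.42% of those lower and 11.5% of all windows. The stress response element AGGGG stood in 55.7% of the genes higher at 1.5-fold, 30.5% of those lower and 40% of all windows. For the RRPE motif AAAAATTT of ribosome biogenesis genes these shares were 12.9%, 31.6% and 23%. The PAC motif GATGAG showed no such split, at 40%, 42.1% and 31.9%. At 2-fold the shares of the 13 rises and the 9 falls were 15.4% and 22.2% for URS1. They were 46.2% and 22.2% for AGGGG, 0% and 22.2% for RRPE and 53.8% and 33.3% for PAC.

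The list for the glyoxylate cycle and gluconeogenesis holds 10 genes, with a median change of 1.24. Of them 6 rose at least 2-fold, where 0.225% of all genes did. At 1.5-fold, where 1.23% of all genes rose, 2 more passed, and none fell. All 6 past 2-fold also passed without each of the 4 libraries in turn. PCK1 (chrXI:631152-632801) encodes phosphoenolpyruvate carboxykinase, the first committed step of gluconeogenesis. It stood at 98 and 95.6 TPM at 12 h and at 400 and 383 TPM at 16 h, a change of 2.00 ± 0.14 (log2, SE, adjusted p = 8.1e-14 in limma). Its 0 h libraries held 6.76 and 5.96 TPM, so the level rose through both steps, by 3.73 and then by 2.00. FBP1 (chrXII:873746-874792) encodes fructose-1,6-bisphosphatase, the enzyme that reverses the phosphofructokinase step. It went from 152 and 154 TPM to 592 and 526 TPM, a change of 1.86 ± 0.15 (adjusted p = 2.5e-12 in limma). In both genes the 12 h and the 16 h libraries were far apart and those of 1 time close together.

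ICL1 (chrV:285241-286914), isocitrate lyase, and MLS1 (chrXIV:406358-408022), malate synthase, are the 2 enzymes particular to the glyoxylate cycle. ICL1 rose from 325 and 361 TPM to 1068 and 1059 TPM, by 1.63 ± 0.14 (adjusted p = 2.6e-11 in limma). MLS1 rose from 227 and 264 TPM to 527 and 544 TPM, by 1.12 ± 0.14 (adjusted p = 1.2e-07 in limma). ICL1 was thus the most abundant of the 10 at this stage except CIT2, the peroxisomal citrate synthase, which held 1109 and 1240 TPM at 12 h and 1354 and 1350 TPM at 16 h and did not pass (0.21 ± 0.08). MDH2 (chrXV:81787-82920), the cytosolic malate dehydrogenase, rose from 110 and 121 TPM to 290 and 306 TPM, by 1.36 ± 0.11 (adjusted p = 1e-12 in limma). Its peroxisomal relative MDH3 held 271 and 309 TPM at 12 h and 294 and 297 TPM at 16 h, overlapping ranges with a change of 0.03 ± 0.07.

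SFC1 (chrX:609773-610741) encodes the mitochondrial carrier that exchanges succinate for fumarate and so links the glyoxylate cycle to the mitochondrion. From 113 and 105 TPM it rose to 387 and 403 TPM, by 1.84 ± 0.16 (adjusted p = 9.3e-12 in limma), after 0.566 and 0.942 TPM at 0 h. The remaining members moved less. IDP2, the cytosolic isocitrate dehydrogenase that makes NADPH, went from 375 and 429 TPM to 680 and 698 TPM (0.78 ± 0.14, adjusted p = 0.00017 in limma), and ACS1, an acetyl-CoA synthetase, from 86.1 and 95.4 TPM to 171 and 135 TPM (0.74 ± 0.11, adjusted p = 9.2e-06 in limma). Both passed at 1.5-fold, but ACS1 not in every fit that left out 1 library.

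**Figure D2:**
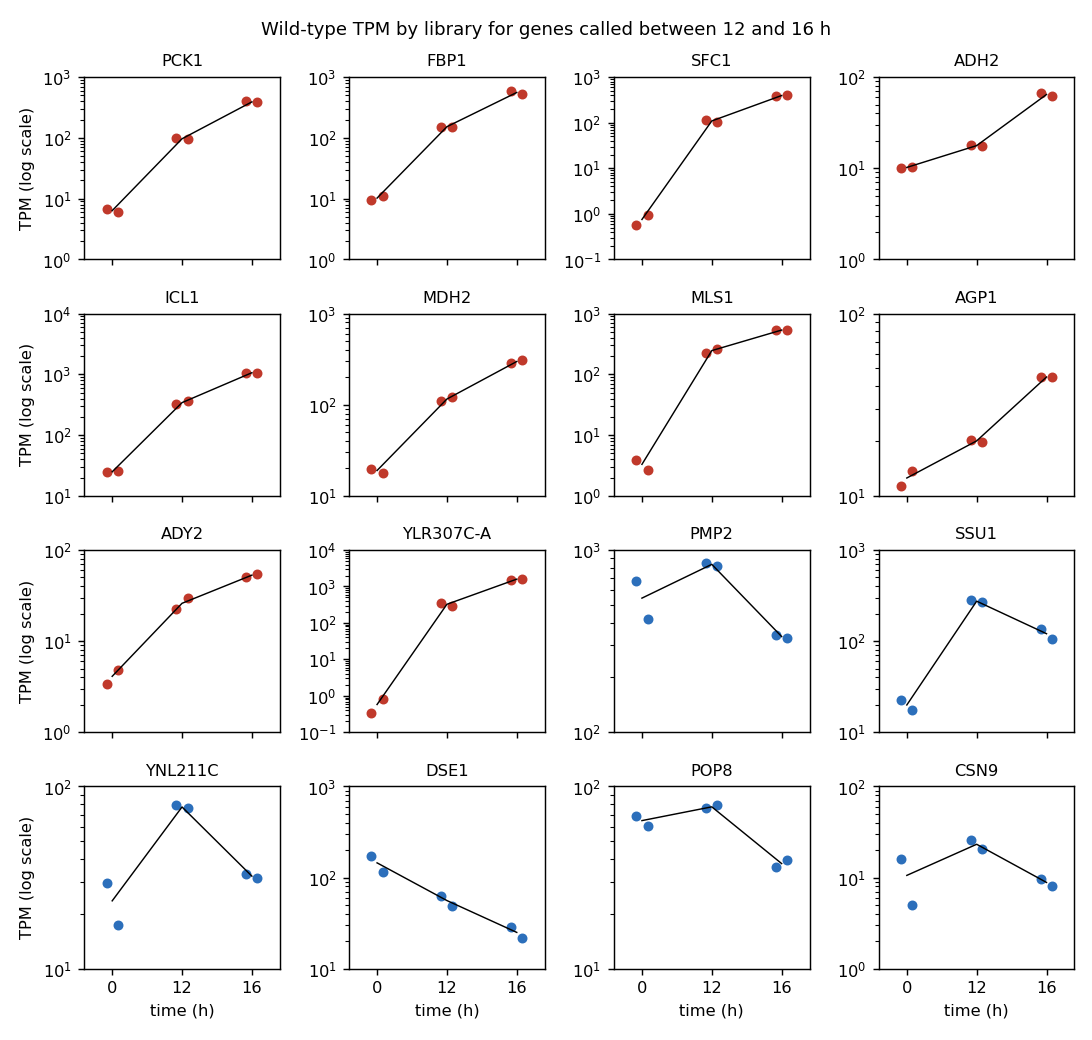
TPM of each wild-type library (points, 2 per time) against time for 16 of the 22 genes that passed at 2-fold, with the line through the means and a log y axis of its own for each gene. The red genes keep rising after 12 h, whereas 5 of the 6 blue genes have their highest mean at 12 h and DSE1 falls through both steps.

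Genes for the use of ethanol, acetate and lactate split. Of 12 tested, 2 rose at least 2-fold, 3 more at 1.5-fold, and none fell past either limit, with a median of 0.27. Of all genes 0.225% rose at 2-fold and 1.23% at 1.5-fold. ADH2 (chrXIII:873291-874337) encodes the alcohol dehydrogenase that oxidises ethanol, a gene known to be repressed by glucose. It held 10.1 and 10.4 TPM at 0 h, 18 and 17.5 TPM at 12 h and 67.2 and 61.8 TPM at 16 h. The later change was 1.80 ± 0.17 (adjusted p = 2.7e-10 in limma) and the earlier one 0.74. On the log2 scale, in contrast to PCK1, FBP1 and ICL1, most of its rise thus came after 12 h. In TPM most of the rise came after 12 h in those genes too. ADY2 (chrIII:132273-133124), a plasma membrane acetate transporter, rose from 22.5 and 29.6 TPM to 50.9 and 55.2 TPM, by 1.01 ± 0.19 (adjusted p = 4e-04 in limma), and fell under the 2-fold limit without the first 12 h or the second 16 h library.

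The other 3 genes of this group were named after their values were seen. DLD1, the mitochondrial D-lactate dehydrogenase, stood at 133 and 137 TPM at 12 h, as at 0 h (136 and 133 TPM), and at 249 and 253 TPM at 16 h (0.89 ± 0.10, adjusted p = 8.4e-09 in limma). JEN1, the lactate and pyruvate permease, went from 600 and 699 TPM to 1069 and 1008 TPM (0.68 ± 0.12), and lost its 1.5-fold call in at least 1 fit without a library. ALD6, the cytosolic aldehyde dehydrogenase that makes acetate, had fallen from 894 and 879 TPM at 0 h to 314 and 328 TPM at 12 h and stood at 519 and 521 TPM at 16 h (0.69 ± 0.14), a turn in direction. The stress-related aldehyde dehydrogenase ALD3 held 489 and 534 TPM at 12 h and 370 and 368 TPM at 16 h (−0.47 ± 0.10, adjusted p = 0.0014 in limma), short of 1.5-fold. The mitochondrial ALD4 held 283 and 309 TPM and then 263 and 231 TPM, a difference that did not pass (adjusted p = 0.064 in limma). ATO2 (635 and 733, then 682 and 601 TPM), related to ADY2, overlapped between the times.

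**Figure D3:**
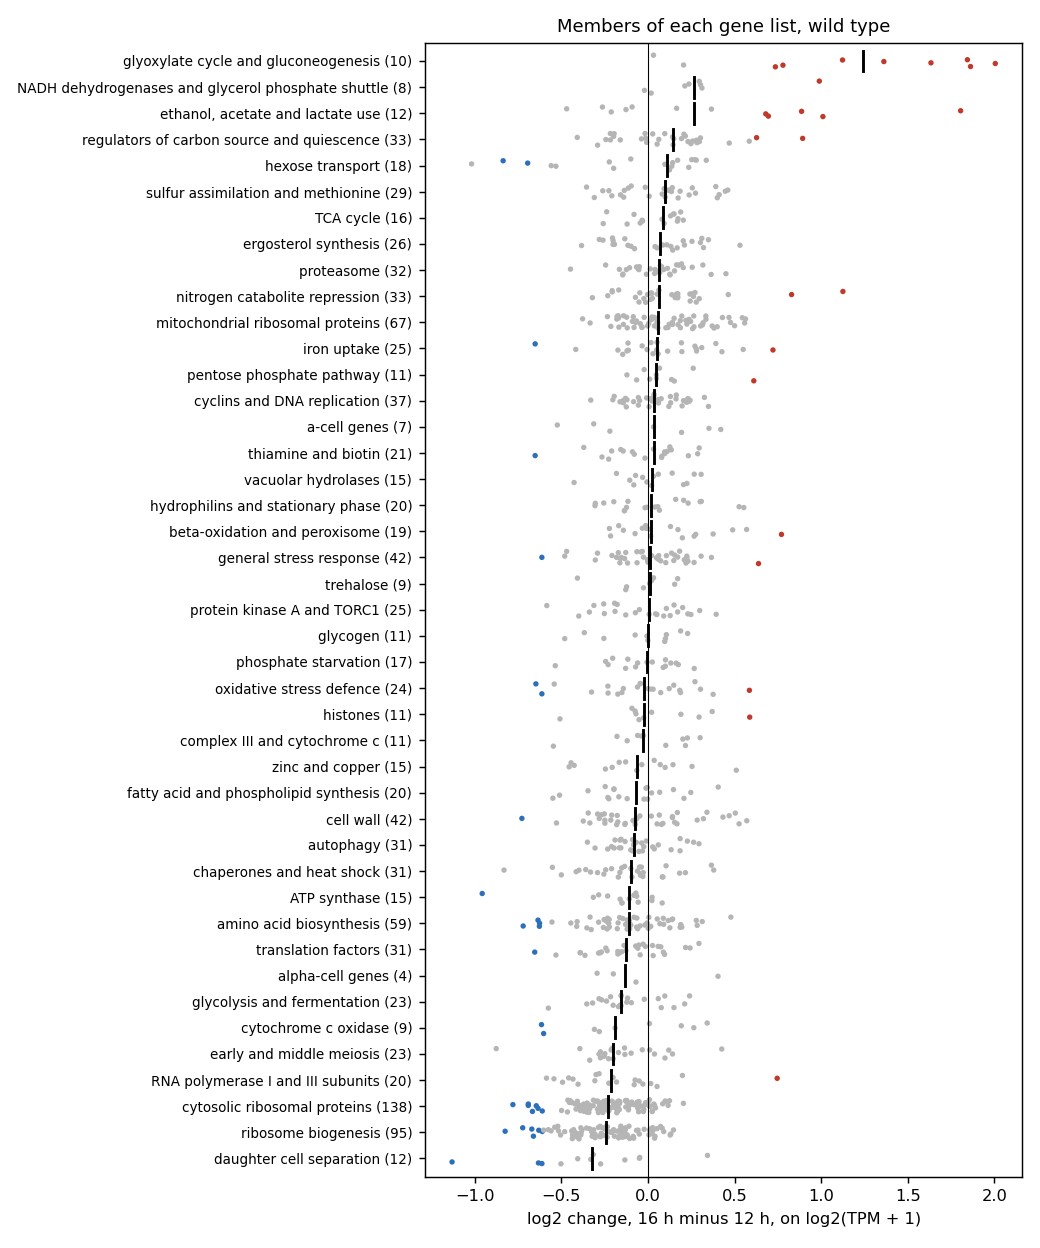
Change from 12 to 16 h (log2 of TPM + 1) for every tested member of each gene list with at least 4 tested members, with the number tested in brackets, red and blue where a member passed at 1.5-fold, and a black bar at the list's median. The glyoxylate and gluconeogenesis list stands at a median of 1.24, and every other list lies between −0.32 and 0.27.

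A few genes outside central carbon metabolism also rose. AGP1 (chrIII:76018-77919), a broad amino acid permease under nitrogen catabolite repression, went from 20.4 and 19.7 TPM to 45 and 44.8 TPM, by 1.13 ± 0.14 (adjusted p = 1.2e-07 in limma). It was the only one of 33 genes of nitrogen catabolite repression past the 2-fold limit, where 0.225% of all genes rose. PUT4, the proline permease, passed at 1.5-fold (8.86 and 6.71 TPM, then 14.7 and 14.3 TPM, 0.83 ± 0.22), but not in every fit without 1 library. The median of the group was 0.06. YLR307C-A (chrXII:746848-747111), a short gene without a standard name that was singled out after its values were seen, had the second largest rise. It held 0.346 and 0.814 TPM at 0 h, 351 and 299 TPM at 12 h and 1530 and 1652 TPM at 16 h, with a later change of 2.29 ± 0.29 (adjusted p = 2.2e-07 in limma).

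The remaining 3 rises are uncertain because each gene has a near copy elsewhere in the genome and the division of shared reads is not given in the sources used here. HMRA2 stood at the table's floor of 0.1 TPM in both 12 h libraries and at 13.9 and 44.4 TPM at 16 h, and its copy HMLALPHA2 is 100% identical. Only the best match of each gene was kept, so HMRA2 may have other copies that are not named here. The 0 h libraries also differed for HMRA2, at 0.1 and 5.54 TPM, and it lost its call in each fit that left out 1 of the 4 libraries. The subtelomeric genes YML133C (2.09 and 3.48 TPM, then 7.9 and 6.99 TPM) and YHL049C (1.1 and 1.51 TPM, then 4.93 and 3.78 TPM) were low throughout.

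Single members of other metabolic lists were higher at 1.5-fold, where 2.88% of all genes passed in either direction, and 1 call in a list this short is no result about the list. STL1, the glycerol proton symporter, went from 21.5 and 23.4 TPM to 46 and 44.9 TPM (0.99 ± 0.12, adjusted p = 7.6e-08 in limma). It was counted in the list of 8 genes for NADH dehydrogenases and the glycerol phosphate shuttle, though it belongs to neither. No other member of that list passed 1.5-fold. CRC1, the mitochondrial carnitine carrier, went from 75.3 and 88.8 TPM to 149 and 132 TPM (0.77 ± 0.11), alone among 19 genes of beta-oxidation and peroxisomes. RKI1 of the pentose phosphate pathway went from 29.5 and 26.7 TPM to 39.6 and 47.5 TPM (0.61 ± 0.20), 1 of 11. CCP1, mitochondrial cytochrome c peroxidase and 1 of 3 calls among 24 oxidative stress genes, went from 91.8 and 123 TPM to 173 and 148 TPM (0.59 ± 0.15). Of these 4, STL1 and CRC1 kept their calls without any 1 library and RKI1 and CCP1 did not.

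Respiratory chain subunits gave 3 calls at 1.5-fold, all lower at 16 h, where 1.65% of all genes were lower. None of the 16 genes of the TCA cycle and none of the 11 of complex III and cytochrome c passed at 1.5-fold, with medians of 0.09 and −0.03, after medians of 2.32 and 2.34 in the step from 0 to 12 h. Of 9 cytochrome c oxidase subunits 2 were lower at 1.5-fold and of 15 ATP synthase genes 1. COX6 held 971 and 1024 TPM at 12 h and 645 and 657 TPM at 16 h (−0.61 ± 0.10, adjusted p = 1e-04 in limma). COX7 held 5826 and 5678 TPM and then 3741 and 3836 TPM (−0.60 ± 0.18, adjusted p = 0.025 in limma). ATP20, subunit g of the ATP synthase, fell from 711 and 677 TPM to 371 and 343 TPM (−0.96 ± 0.23, adjusted p = 0.0055 in limma). In all 3 the ranges at 12 and 16 h did not overlap, but none kept the 1.5-fold call in every fit without 1 library. The medians of the oxidase and ATP synthase groups were −0.19 and −0.11. Outside these lists, and named after their values were seen, 3 genes for the assembly of the oxidase were higher at 1.5-fold, COA4 (31 and 28.7 TPM, then 43.8 and 55 TPM, 0.70 ± 0.18), COX19 (0.63 ± 0.18) and PET117 (0.63 ± 0.15), and each lost that call in at least 1 fit without a library. No gene of the 67 mitochondrial ribosomal proteins passed at 1.5-fold.

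Each stress or stationary-phase list of this paragraph held at most 2 genes past 1.5-fold, where 2.88% of all genes passed. With lists this short that is no result about them. The 20 hydrophilin and stationary-phase genes had risen by a median of 5.20 from 0 to 12 h, and none passed at 1.5-fold afterwards (median 0.02). Among 42 general stress genes OM45, a mitochondrial outer membrane protein, was higher (1119 and 1346 TPM, then 1853 and 1969 TPM, 0.64 ± 0.15) and CTT1, the cytosolic catalase, lower (178 and 208 TPM, then 132 and 119 TPM, −0.61 ± 0.11). The median of that list was 0.01. Neither kept its call in every fit without 1 library. Lists for trehalose (9 genes), glycogen (11), chaperones (31), the proteasome (32), autophagy (31) and vacuolar hydrolases (15) held no gene past 1.5-fold.

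Lists of protein synthesis genes had medians below 0 and no member past 2-fold. Of 138 cytosolic ribosomal protein genes none passed at 2-fold and 7 were lower at 1.5-fold, where 1.65% of all genes were lower. At an adjusted p under 0.05 with no fold limit 37 were lower and none higher. By that rule 11.7% of all genes passed, 5.83% higher and 5.84% lower. The median was −0.23, after −2.34 in the earlier step. RPS7A went from 379 and 339 TPM to 200 and 218 TPM (−0.78 ± 0.13, adjusted p = 0.00012 in limma) and RPL43B from 379 and 368 TPM to 219 and 244 TPM (−0.69 ± 0.12, adjusted p = 0.00018 in limma). These 2 of the 7 kept their calls without any 1 library. Of 95 ribosome biogenesis genes 6 were lower at 1.5-fold, against the same 1.65% of all genes, with a median of −0.24. Among them were NOP56, a core protein of box C/D snoRNPs (22 and 22.6 TPM, then 11.4 and 13 TPM, −0.82 ± 0.28), and NOC2 of the pre-60S particle (8.87 and 8.28 TPM, then 5.05 and 4.56 TPM, −0.72 ± 0.20). None of the 6 kept its call in every fit without 1 library. One of 31 translation factors, NIP1 of eIF3, was lower (10.5 and 11 TPM, then 6.54 and 6.41 TPM, −0.65 ± 0.20). In the other direction RPA14 of RNA polymerase I was higher (52.1 and 48.1 TPM, then 84.3 and 85 TPM, 0.75 ± 0.21), but its gene overlaps YDR157W and reads may be shared. Neither NIP1 nor RPA14 kept its call in every fit without 1 library.

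The 9 falls past 2-fold belonged to no single pathway. SSU1 (chrXVI:373793-375169), the sulfite efflux pump, peaked at 12 h. It went from 22.5 and 17.4 TPM at 0 h to 280 and 269 TPM at 12 h and 135 and 107 TPM at 16 h, a later change of −1.19 ± 0.15 (adjusted p = 1.9e-07 in limma). PMP2 (chrV:122798-122929), a small proteolipid associated with the plasma membrane proton pump, went from 849 and 820 TPM to 341 and 329 TPM (−1.31 ± 0.29, adjusted p = 0.0027 in limma). POP8 (chrII:185998-186474), a subunit of RNase P and RNase MRP, went from 75.8 and 78.8 TPM to 36.2 and 39.3 TPM (−1.02 ± 0.19, adjusted p = 0.00049 in limma). CSN9, a subunit of the COP9 signalosome, went from 25.8 and 20.7 TPM to 9.59 and 8.13 TPM (−1.29 ± 0.35, adjusted p = 0.015 in limma). DSE1, expressed in daughter cells, fell through both steps, from 175 and 116 TPM at 0 h to 63.5 and 48.6 TPM at 12 h and 28.6 and 21.5 TPM at 16 h (−1.13 ± 0.30, adjusted p = 0.012 in limma).

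With DSE1, ASH1 and AMN1 were lower at 1.5-fold among the 12 genes of daughter cell separation, where 1.65% of all genes were lower. None of these 3 kept that call in every fit without 1 library. The list's median of −0.32 was the lowest of the lists with at least 4 tested genes. Outside the naming rule, YNL211C went from 78.7 and 75.7 TPM to 33 and 31.4 TPM (−1.23 ± 0.23), YER138W-A, which has a copy of 100% identity elsewhere and is uncertain for that reason, fell by 1.32, and YGL204C fell by 1.04. ENA2, a sodium pump with the near copy ENA5, went from 3.9 and 3.96 TPM to 0.19 and 0.822 TPM. Only SSU1 and YNL211C of the 9 falls passed at 2-fold without each of the 4 libraries in turn, against 9 of the 13 rises. Without the first 12 h library 3 of the 9 passed, and without either 16 h library 4.

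The 2 wild-type libraries of 0 h did not enter the later change, but their spread entered the fit's error and so the calls. The genes that fell also differed between these 2 libraries. All 9 that fell at 2-fold, and 90 of the 95 lower at 1.5-fold (94.7%), were higher in the first 0 h library than in the second, with median differences of 0.69 and 0.37, against 73.9% and 0.11 for all genes. Of the genes higher at 1.5-fold 36.6% were higher in that library. The genes that fell were also short, with a median length of 477 bases for the 9 and 868 for the 95, against 1047 for the 13 that rose and 1212 for all genes. Between the 2 libraries of 12 h the median difference, first minus second, was 0.05 for the 9 and for the 95, against −0.04 for all genes. Between those of 16 h it was 0.07 for the 9 and 0.05 for the 95, against 0.03. The part of library preparation in the falls was not tested.

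**Figure D4:**
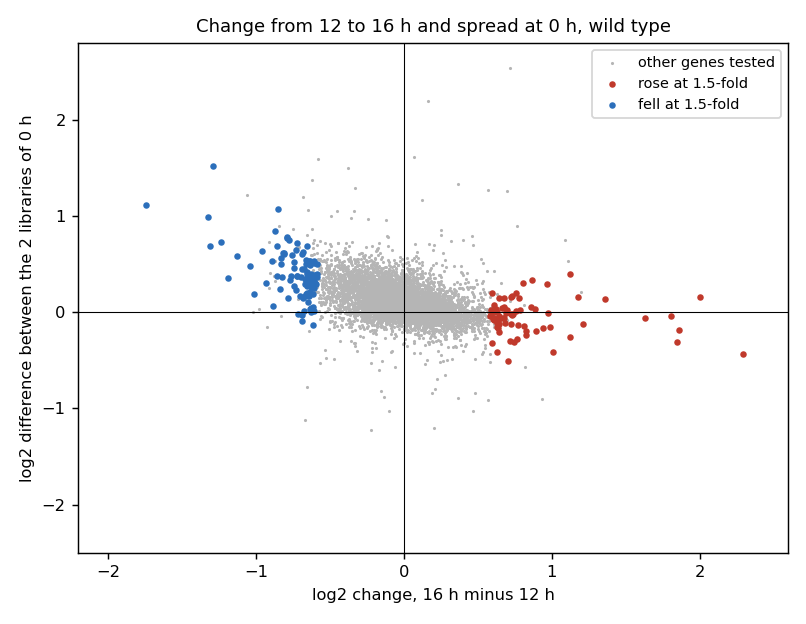
Change from 12 to 16 h (x) against the difference between the 2 libraries of 0 h, first minus second (y), both in log2 of TPM + 1, for each gene tested in the wild type; 2 genes lie outside the plotted range. Genes lower at 1.5-fold (blue) sit above 0 on the y axis in 90 of 95 cases, and genes higher at 1.5-fold (red) in 26 of 71.

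Sugar transport and biosynthesis gave scattered calls at 1.5-fold, where 1.23% of all genes were higher and 1.65% lower. HXT7, a high-affinity hexose transporter with the near copy HXT6, was lower (706 and 631 TPM, then 391 and 357 TPM, −0.84 ± 0.14), as was HXT4 (110 and 85.5 TPM, then 64.5 and 55.2 TPM, −0.69 ± 0.16), 2 of 18 hexose transport genes. HXT6 went from 5508 and 5641 TPM to 2948 and 2568 TPM (−1.02 ± 0.41) and did not pass (adjusted p = 0.097 in limma). The division of reads between HXT6 and HXT7 is not given, so the call of HXT7 is uncertain. None of 23 glycolysis and fermentation genes passed at 1.5-fold (median −0.16). Of 59 amino acid biosynthesis genes 4 were lower at 1.5-fold, among them HOM6 (182 and 175 TPM, then 112 and 104 TPM, −0.72 ± 0.14) and HOM3 (84.6 and 98.6 TPM, then 63.2 and 54.1 TPM, −0.63 ± 0.16), homoserine dehydrogenase and aspartate kinase. The heme oxygenase HMX1 was higher (294 and 313 TPM, then 484 and 517 TPM, 0.72 ± 0.09), and the biotin transporter VHT1 lower (139 and 163 TPM, then 99.7 and 91.2 TPM, −0.65 ± 0.12). HHO1, the linker histone, was the only call among 11 histone genes (0.59 ± 0.14). CRG1 (−0.73 ± 0.16) was the only call in the list of 42 cell wall genes but is a methyltransferase and no cell wall protein. Of 24 oxidative stress genes 3 passed, CCP1 higher, CTT1 lower and GPX2 lower (−0.65 ± 0.16). Of the genes named in this paragraph so far HXT7, HOM6, HMX1 and CRG1 kept their calls in every fit without 1 library. HXT4, HOM3, VHT1, HHO1, GPX2, CCP1 and CTT1 did not. None passed at 1.5-fold among sulfur, phosphate, zinc and copper, ergosterol, fatty acid, cyclin, meiosis and protein kinase A and TORC1 genes. The alpha-cell genes, led by MF(ALPHA)1 at 179 to 214 TPM in the 4 libraries, held none either. Nor did the a-cell genes, led by MFA1 at 59.7 to 82.4 TPM and with STE2 at 7.6 to 10.1 TPM. MFA1 stood above the alpha-cell genes MF(ALPHA)2 (16.2 to 24.7 TPM), STE3 (23.7 to 31.8 TPM) and SAG1 (29 to 38.2 TPM). At 0 h this order was not seen in the wild type. The 4 alpha-cell genes then had means from 189 (STE3) to 3978 TPM (MF(ALPHA)1). Means of the 7 a-cell genes ran from 1.71 (AGA2) to 12.9 TPM (MFA2), with MFA1 at 6.63 TPM.

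Of the transcripts of the known activators, those of CAT8, ADR1 and HAP4 did not pass the test. CAT8 held 24.4 and 27.2 TPM at 12 h and 23 and 21.1 TPM at 16 h (−0.22 ± 0.12, adjusted p = 0.21 in limma). ADR1 held 47.3 and 52.3 TPM and then 44 and 39.8 TPM (−0.24 ± 0.13, adjusted p = 0.21 in limma), and HAP4 444 and 469 TPM and then 408 and 388 TPM (−0.20 ± 0.12, adjusted p = 0.27 in limma). All 3 had risen before 12 h, by 2.98, 3.84 and 4.25. SIP4 was higher at 16 h (31.4 and 31.8 TPM, then 49.5 and 46.3 TPM, 0.58 ± 0.16, adjusted p = 0.017 in limma), just under 1.5-fold. Of the 33 regulators 2 were higher at 1.5-fold, where 1.23% of all genes were, too few for a result about the list. REG2, a regulatory subunit of the Glc7 phosphatase, went from 91.2 and 92.1 TPM to 177 and 166 TPM (0.89 ± 0.14, adjusted p = 4.6e-05 in limma). SIP2, a beta subunit of the Snf1 complex, went from 72.5 and 86.5 TPM to 124 and 122 TPM (0.63 ± 0.12, adjusted p = 0.00036 in limma), and lost its call in at least 1 fit without a library.

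Whether the step differed in the mutants was tested as the change in the mutant minus the change in the wild type. The 3 tests share the 4 wild-type libraries. The mutated genes were low in their own strains, with COQ2 at 0.1 to 2.27 TPM (10.7 to 11.4 in the wild type), COX4 at 0.446 to 10.8 TPM (1261 to 1632) and RAS2 at 0.1 to 2.32 TPM (136 to 155). At an adjusted p under 0.05 and a 2-fold difference, 138 genes (2.39%) differed in coq2, 44 (0.763%) with a higher and 94 (1.63%) with a lower change than in the wild type. In cox4 the number was also 138 (2.39%), 36 higher (0.624%) and 102 lower (1.77%), and in ras2 it was 492 (8.53%), 363 higher (6.3%) and 129 lower (2.24%). These splits depend on the scaling of the libraries. Against median-ratio scaling the deposited values put the difference of a typical gene at −0.12 in coq2, −0.18 in cox4 and 0.18 in ras2, and that scaling gave 98 higher and 58 lower in coq2, 81 and 46 in cox4 and 238 and 223 in ras2.

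In both electron transport mutants the late change of most glyoxylate and gluconeogenesis genes was lower than in the wild type. The difference passed with a lower change for 7 of the 10 genes in coq2 and 7 in cox4, where 1.63% and 1.77% of all genes had a lower change, and for none with a higher change. With median-ratio scaling, under which the split over all genes turned, the counts were 6 and 7, and with quantile normalization 7 and 7. The list's own median changes were −0.29 in coq2 and −0.25 in cox4, so the list as a whole did not rise there. SFC1 held 15.1 and 16.9 TPM at 12 h and 11.5 and 12.2 TPM at 16 h in coq2, against the rise to 387 and 403 TPM in the wild type, a difference in change of −2.24 ± 0.22 (adjusted p = 1e-09 in limma). In cox4 it held 20.8 and 18.1 TPM and then 14 and 15.8 TPM, a difference of −2.21 ± 0.22 (adjusted p = 9.1e-10 in limma). MDH2 changed by −0.43 in coq2 and −0.36 in cox4, and its differences were −1.79 ± 0.15 and −1.72 ± 0.15. PCK1 changed by 0.52 in coq2 and 0.31 in cox4 against 2.00 in the wild type, with differences of −1.49 ± 0.20 and −1.70 ± 0.20. The difference for ADH2 passed in cox4 (−1.23 ± 0.24) and stayed under 2-fold in coq2 (−0.89 ± 0.24). The differences for ADY2 and ACS1 stayed under 2-fold in both.

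**Figure D5:**
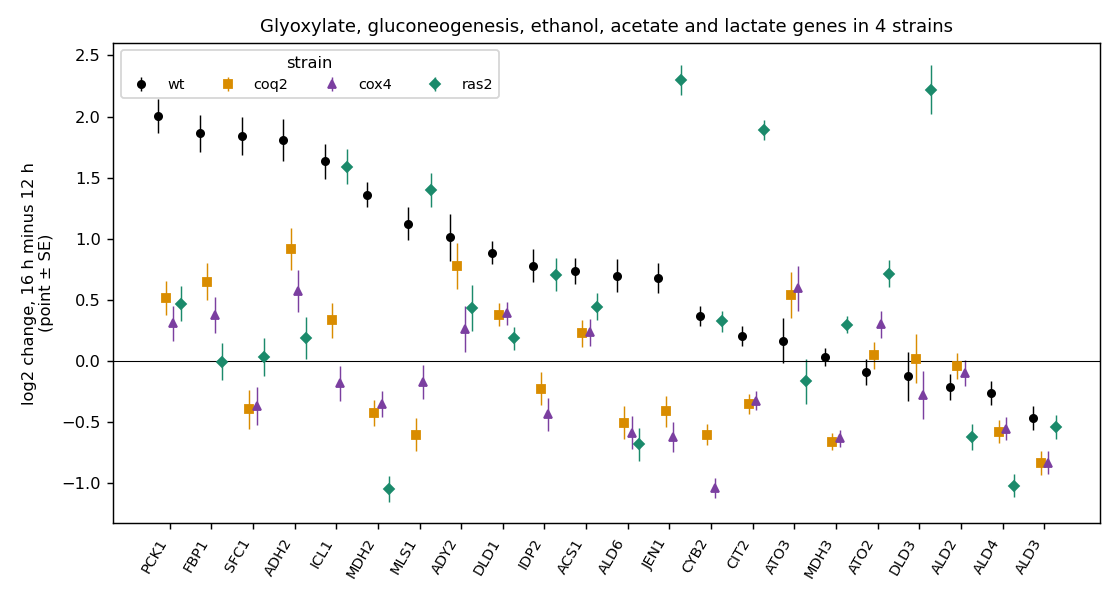
Change from 12 to 16 h (log2 of TPM + 1, point ± SE from the fit, 2 libraries per time) of the 22 glyoxylate, gluconeogenesis, ethanol, acetate and lactate genes in the wild type (black circles), coq2 (orange squares), cox4 (purple triangles) and ras2 (green diamonds). PCK1, FBP1 and SFC1 lie at 1.84 to 2.00 in the wild type and under 0.7 in the 3 mutants, while ICL1 and MLS1 lie at 1.59 and 1.40 in ras2.

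In ras2 the same list divided. ICL1 changed by 1.59, close to 1.63 in the wild type, with a difference of −0.04 ± 0.20, and MLS1 changed by 1.40 with a difference of 0.28 ± 0.19. Neither difference passed. PCK1 (0.47), FBP1 (−0.01), SFC1 (0.03) and MDH2 (−1.05) all changed less than in the wild type, with differences of −1.54 ± 0.20, −1.87 ± 0.21, −1.82 ± 0.22 and −2.41 ± 0.15. CIT2 went the other way, changing by 1.89 in ras2 and 0.21 in the wild type (difference 1.68 ± 0.12).

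Genes of the respiratory chain, which gave few calls in the wild type, had a higher change in ras2. The change was higher than in the wild type in 11 of 11 genes of complex III and cytochrome c, 8 of 9 of cytochrome c oxidase, 13 of 15 of ATP synthase and 9 of 16 of the TCA cycle, where 6.3% of all genes were. With median-ratio scaling these counts were 10, 6, 11 and 8. Their own median changes in ras2 were 1.64, 1.54, 1.22 and 1.1. CYC1, cytochrome c isoform 1, held 41.6 and 23.2 TPM at 12 h and 516 and 567 TPM at 16 h in ras2, and 441 and 473 TPM and then 488 and 586 TPM in the wild type, a difference of 3.85. HAP4 held 28 and 26.8 TPM and then 194 and 212 TPM in ras2, a difference of 3.04 ± 0.17 (adjusted p = 3.9e-18 in limma). By 16 h CYC1 in ras2 lay within the range of the wild-type libraries of 16 h and HAP4 remained below it. Of the 95 ribosome biogenesis genes 42 also had a higher change in ras2, where their median was 0.73, and 27 did with median-ratio scaling.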

How the data were processed

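Per the labels' protocols, a stranded TruSeq kit for polyadenylated RNA was combined with Ribo-Zero removal of rRNA and sequenced on an Illumina instrument. Salmon 0.9.1, bcl2fastq 2.20.0.422 and sacCer3 appear in the submitters' processing notes with no roles. The deposited values are TPM as scaled by the authors, and any value under 0.1 stands at 0.1. TPM gives no read counts, so depth is unknown and error was taken from the libraries' spread. The 2 deposited tables were identical, and only 1 of them was read. Columns name strain and time but no replicate.

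A gene was kept if it reached 1 TPM in 2 or more libraries (5766 kept, 37 removed). A limma model (3.58.1, R 4.3.3) gave each of 36 groups a mean of log2(TPM + 1) over 71 libraries, with 35 residual degrees of freedom, an intensity trend and Benjamini-Hochberg adjustment over all genes tested. The script was tested on simulated data. "First" and "second" library follow column order. Names and coordinates are those of R64 (5790 of 5803 identifiers matched). A near copy is at least 95% identical over at least 80% of the length (8 of 121 genes searched).

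The gene lists, comparisons and tests were chosen with earlier results of these data known. Named by rule were the 12 largest rises and falls past 2-fold that had a standard name, a mean of 10 TPM or more at either time and no overlap between times; for a list, up to 4 members past 2-fold or else 2 past 1.5-fold; all regulators and mating-type genes; and the 3 largest of each sign for each mutant, filtered by name and TPM but not by overlap. Others were named after their values were seen. Lists are described by counts and medians. Alternatives were another pseudocount, no filter, median-ratio scaling, quantile normalization, no trend, fits on fewer libraries, each library left out, and no fold limit.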

Additional observations from a re-analysis of the deposited data

Results flagged for a closer look

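The genes whose change from 12 to 16 h differed most from that of the wild type, by the test of the difference itself in the limma model, are given here as the mutant's change minus the wild type's on the log2(TPM + 1) scale. They were taken from the genes past the 2-fold limit with a standard name and a mean of at least 10 TPM in 1 of the 4 groups compared, which leaves out larger differences such as those of ENA2 in coq2 (1.91) and YLR307C-A in cox4 (−1.95). In coq2 the largest positive differences were those of DED1 (1.73), an RNA helicase of translation initiation, MUP3 (1.63), a low-affinity methionine permease, and DDI3 (1.58), which has the near copy DDI2. The largest negative ones were those of SFC1 (−2.24), ECM13 (−1.96) and MDH2 (−1.79).

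In cox4 the largest positive differences were those of COS10 (1.74), NGL3 (1.68) and MND1 (1.45), a meiotic recombination gene. SFC1 (−2.21), ECM3 (−1.97) and ECM13 (−1.94) had the largest negative ones.

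In ras2 the largest positive differences were those of HXT6 (4.05), CYC1 (3.85) and HAP4 (3.04). HXT6, which shares reads with its near copy HXT7, went from 125 and 130 TPM to 1062 and 1040 TPM in ras2 and from 5508 and 5641 TPM to 2948 and 2568 TPM in the wild type. LSO1 (−3.30), CWP2 (−3.12), a cell wall mannoprotein, and PUT4 (−2.99) had the largest negative ones. CWP2 went from 10990 and 13441 TPM to 1497 and 1333 TPM in ras2 and from 1426 and 1116 TPM to 1336 and 1224 TPM in the wild type. ECM13 changed in opposite directions in the mutants, by −1.15 in coq2, −1.13 in cox4 and 2.85 in ras2, against 0.81 in the wild type.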

How the results depend on the processing

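No paired analysis was possible because the columns carry no replicate number. No named gene reversed under the alternatives, but the balance of higher against lower calls did turn. Of the 22 genes past 2-fold, 11 passed without each of the 4 libraries in turn and 10 under all 12 alternatives. Without 1 library the count was 14 to 20 (11 to 13 higher, 3 to 7 lower); at 1.5-fold it was 57 to 153 (32 to 89 higher, 25 to 64 lower, with more higher than lower in all 4 fits against 71 and 95), lowest without the first 12 h library, and 89 without the second 16 h library. Of those 166 genes 34 passed in every such fit. Fewer libraries widen the standard error of these fits. With no fold limit 673 genes passed, 336 higher and 337 lower. A pseudocount of 5 gave 110 at 1.5-fold, 58 of them lower. For the differences between strains it gave 78 in coq2 (19 higher, 59 lower) and 84 in cox4 (22 and 62). Median-ratio scaling gave 98 higher and 58 lower in coq2, 81 and 46 in cox4, and 238 and 223 in ras2; quantile normalization gave 73 higher and 67 lower in coq2, 65 and 68 in cox4 and 204 lower in ras2. Without 1 library the counts were 131 to 199 in coq2 (27 to 99 higher, 80 to 152 lower; 27 higher and 152 lower without the first coq2 16 h library, 99 higher without the first coq2 12 h library and 89 without the second of 16 h), 134 to 166 in cox4 (29 to 44, 95 to 132) and 450 to 564 in ras2 (320 to 419, 119 to 148). The other causes were not tested. Depth is unknown, so no limit from counting can be given.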

Other observations

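Several genes outside the lists were higher at 1.5-fold and passed without each of the 4 libraries in turn; they were named after their values were seen. ACS2, the acetyl-CoA synthetase of growth on glucose, had fallen from 398 and 401 TPM at 0 h to 125 and 131 TPM at 12 h and stood at 213 and 201 TPM at 16 h (0.69 ± 0.13, adjusted p = 0.00029 in limma), a turn like that of ALD6. ICL2, the mitochondrial 2-methylisocitrate lyase, went from 30.9 and 31.8 TPM to 52.2 and 53.4 TPM (0.73 ± 0.10), and MIX17, a mitochondrial intermembrane space protein, from 445 and 519 TPM to 819 and 871 TPM (0.81 ± 0.10). LPX1, a peroxisomal lipase, went from 10.4 and 10.1 TPM to 22.8 and 19.6 TPM (0.97 ± 0.16).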
